A study of Danio rerio with 8 samples.

Results

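The miR-203 and miR-205 miRNAs of the zebrafish embryo were followed through 3 probes, dre-miR-203a, dre-miR-203b and dre-miR-205, of the 248 zebrafish miRNA probes on the chip. They were picked by probe name, with earlier results of these data known, and their star forms were left out of the set. Total RNA came from whole embryos at 72 hpf, and each sample was hybridized to an array of its own with 10 spots per probe. MC-RR embryos (4 arrays) had microcystin-RR, a cyanobacterial toxin, injected into the yolk at an early cleavage stage, and control embryos (4 arrays) were given saline solution in the same way. The series describes the 4 arrays of a group as biological replicates. The methods keep wild-type AB and Tg-(flk:GFP) fish, and neither the line nor the number of embryos behind an array is given in the sources used here.

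Both miRNAs are classical markers of skin. In mouse epidermis, miR-203 is induced as cells leave the basal layer. In the layers above, it represses the stem cell factor p63 and so favours differentiation. In regenerating zebrafish fins it is known to act on lef1, a transcription factor of the Wnt pathway. miR-205 is found in basal epidermal and other epithelial cells, and in mammalian cells it acts with the miR-200 family on the ZEB transcription factors that repress epithelial genes. In RNA from whole embryos, fewer epidermal cells and less miRNA per cell cannot be told apart.

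The sequences are shown because the miR-203 probes are nearly identical and read differently on an array described below. They are the target sequences listed in the deposited scanner output, 5′ to 3′, with the seed (bases 2 to 8) in capitals. mmu-miR-203, a mouse sequence among the customer-defined probes, is printed beside them since it is a further probe against miR-203.
dre-miR-203a: gUGAAAUGuuuaggaccacuug
dre-miR-203b: gUGAAAUGuucaggaccacuug
mmu-miR-203: uGAAAUGUuuaggaccacuaga
dre-miR-205: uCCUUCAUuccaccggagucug
Counted from the 5′ end, dre-miR-203b differs from dre-miR-203a by U11C alone, outside the seed, so both share the seed UGAAAUG. Only these 2 of the 248 zebrafish probes have that seed. The listed mouse sequence starts 1 base later and, counted on dre-miR-203a, has U21A, without its first base and with an added base at the end. Its capitals therefore mark GAAAUGU, while it holds the stretch UGAAAUG from its own first base. Against dre-miR-203b it differs at both places, C11U and U21A. Over the shared stretch the mouse probe thus has the base of dre-miR-203a at position 11. dre-miR-205 shares its seed CCUUCAU with no other zebrafish probe, and its nearest zebrafish sequence on the chip, dre-miR-139, is 9 edits away.

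The probes are named for miRNAs of separate genes. Whether the dre-miR-203a and dre-miR-203b probes each bind only their own miRNA was not tested. In the RefSeq gene table for zebrafish (assembly GRCz12tu), mir203a neighbours kif26ab and mir203b neighbours kif26aa, genes of the kinesin family. The gene of miR-205 lies within the bounds of plxna2, which encodes a semaphorin receptor. The table does not give the strand or whether that place is an intron. The deposited data name no genome build, so no coordinates are given.

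In controls all 3 miRNAs were bright. The mean spot intensity of dre-miR-203a, as deposited and without background subtraction, was 6648, 4221, 8921 and 4888 on control replicates 1 to 4. For dre-miR-203b it was 9635, 7588, 13838 and 5160, and for dre-miR-205 it was 4568, 3187, 6049 and 1702. Probe brightness depends on the probe as well as on the miRNA, so these values do not rank the 3 miRNAs against each other. Blank spots on the control arrays had medians of 58.1 to 179. The control replicate 4 array had the brightest blank spots, with a 95th percentile of 512, and every spot of the 3 probes was above that percentile there too. The median coefficient of variation of the 10 spots, over all 8 arrays of both groups, was 9.02% for dre-miR-203a, 9.32% for dre-miR-203b and 8.78% for dre-miR-205. It was highest on control replicate 4, at 18.2%, 17.5% and 17.7% in that order.

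After MC-RR the 3 probes parted on a single array. dre-miR-203a read 8635, 62.6, 6726 and 7241 on MC-RR replicates 1 to 4, so replicate 2 was low and the other 3 lay within the range of the controls. For dre-miR-205 the values were 5190, 204, 8096 and 3243, again with replicate 2 low, replicates 1 and 4 within the range of the controls and replicate 3 above it. dre-miR-203b read 13498, 6416, 13141 and 9266, and no array was low. On MC-RR replicate 2, dre-miR-203a was 67.4-fold under its lowest value on the other 7 arrays and dre-miR-205 was 8.34-fold under. dre-miR-203b was brighter there than on control replicate 4. The unsubtracted background makes these ratios smaller, and the lower brightness of that array as a whole makes them larger. In the deposited normalized values, which are background-subtracted, the ratios were 80.3 for dre-miR-203a and 8.24 for dre-miR-205.

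**Figure D1:**
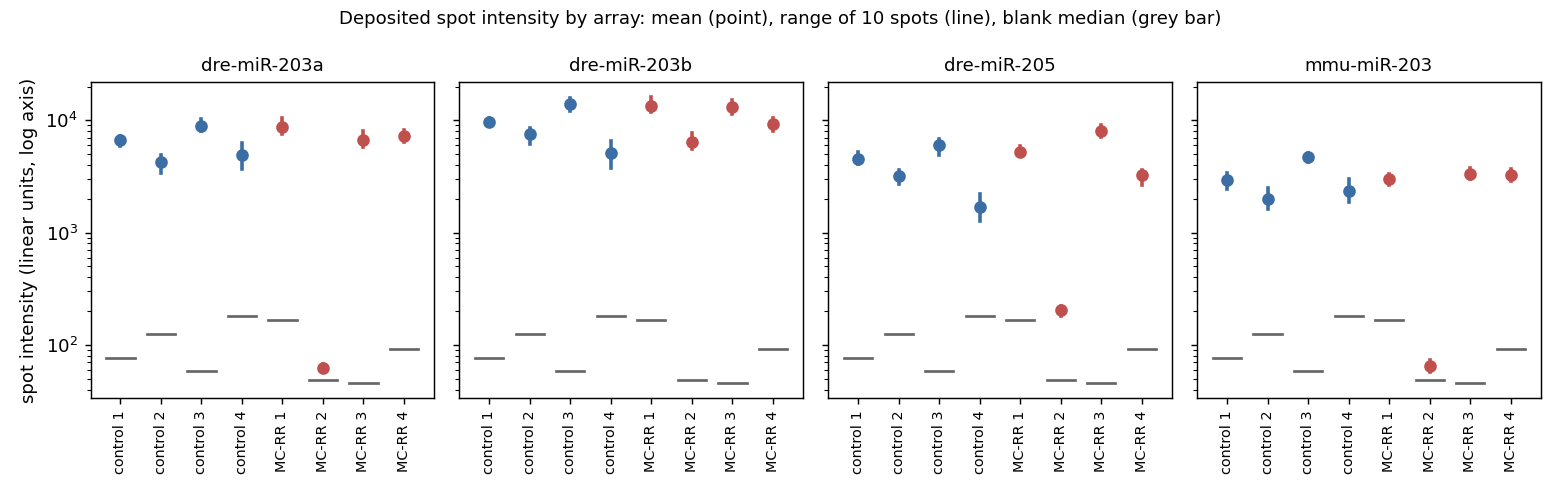
Deposited spot intensity (linear units on a log axis) of dre-miR-203a, dre-miR-203b, dre-miR-205 and the mouse probe mmu-miR-203 on each of the 8 arrays; points are means of 10 spots, lines run from the lowest to the highest spot, and grey bars are the median of the blank spots. On MC-RR replicate 2, dre-miR-203a (62.6) and mmu-miR-203 (64.2) lie next to the blank median of 48.3, dre-miR-205 is at 204, and dre-miR-203b is at 6416.

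The low signals were uniform over the 10 spots of each probe. The 10 dre-miR-203a spots of MC-RR replicate 2 lay between 57.0 and 68.1, with a coefficient of variation of 6.86%, and the dre-miR-205 spots between 181 and 221. Each of the 10 dre-miR-203a spots has a dre-miR-203b spot in the next row of the same column, and these read 5596 to 7664. The dre-miR-203a spots therefore lay beside bright spots at every place, over 117 rows of the chip. At 62.6, dre-miR-203a was 1.29 times the blank median and dre-miR-205 4.22 times. The brightest blank spot of that array read 59.3 and the brightest of its 13 worm miRNA probes 44.8, so the means of both miRNAs lay above these levels. In the order of brightness over the 248 probes, dre-miR-203a stood at places 4 to 13 on the other 7 arrays and at 151 on this one. dre-miR-205 went from places 11 to 23 to place 97, and dre-miR-203b held places 2 to 5 throughout.

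The mouse probe followed dre-miR-203a. It read 2935, 1972, 4758 and 2364 in the 4 controls and 3025, 64.2, 3353 and 3262 with MC-RR, in the order of the replicate numbers. Only MC-RR replicate 2 was low. There it was 30.7-fold under its lowest value on the other arrays, and 28.1-fold under in the deposited normalized values. The probes that have a U at the place that corresponds to position 11 of dre-miR-203a were both low on this array, and the probe with a C there was not. The part of that base was not tested. The mouse probe also differs from dre-miR-203b at position 21, and probes of other sequences dropped on this array as well. The array was dimmer than the others as a whole, with a median intensity of 106 over the zebrafish probes against 199 to 384. The part of this in the result was not tested.

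For the comparison between groups, intensities were background-corrected with limma's normexp model (offset 50), put on the log2 scale, averaged over spots and normalized between arrays by cyclic loess. The groups were compared by limma, two-sided, for the 187 miRNAs that exceeded 95% of blank spots in 4 or more of the 8 samples, and all 3 miRNAs did so on every array. Of the 3, the number called was 0 at an unadjusted p under 0.05, against 16 of the 187 tested miRNAs, or 8.56%. After Benjamini-Hochberg adjustment over all tested miRNAs, 0 of the 187 passed, or 0%. The 4 values of a group overlapped those of the other for each of the 3, while 3.21% of the tested miRNAs had groups that did not overlap. The median log2 fold change over all tested miRNAs was -0.06.

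The normalized log2 signal of dre-miR-203a was 12.45, 11.84, 12.39 and 12.84 on the control arrays and 12.37, 6.79, 12.03 and 12.74 on the MC-RR arrays. Outside replicate 2 the groups overlapped. The means were 12.38 ± 0.41 (SD, n = 4) in controls and 10.98 ± 2.81 (SD, n = 4) with MC-RR. The difference on the log2 scale was -1.40, and its standard error of 1.22 was the highest of all tested miRNAs, for a 95% interval of -4.21 to 1.41. The adjusted p of limma was 0.892 (exact permutation test, two-sided, p = 0.514). In mean change dre-miR-203a was the third lowest of the 187 tested miRNAs, and without MC-RR replicate 2 its log2 fold change was -0.03 with an interval of -0.57 to 0.50.

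For dre-miR-205 the normalized log2 signal was 11.94, 11.40, 11.82 and 11.34 in controls and 11.69, 8.28, 12.30 and 11.64 with MC-RR. MC-RR replicate 2 was the lowest of the 8 arrays and MC-RR replicate 3 the highest. The group means were 11.62 ± 0.30 (SD, n = 4) and 10.98 ± 1.82 (SD, n = 4), a log2 fold change of -0.65 with a standard error of 0.80 and a 95% interval of -2.48 to 1.19. The adjusted p of limma was again 0.892, and the exact permutation p was 0.83. Without MC-RR replicate 2 the sign turned, to 0.23 with a standard error of 0.26.

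dre-miR-203b varied least. Its normalized log2 signal was 12.88, 12.84, 13.04 and 12.88 in controls and 12.81, 13.05, 12.99 and 12.93 with MC-RR. All 8 arrays lay within the span of 12.81 to 13.05, and the groups overlapped. The means were 12.91 ± 0.09 (SD, n = 4) and 12.94 ± 0.10 (SD, n = 4). The log2 fold change was 0.03, with a 95% interval of -0.26 to 0.32 and an adjusted limma p of 0.916. With median scaling in place of cyclic loess it was 0.64, so the narrow spread holds for the main normalization.

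**Figure D2:**
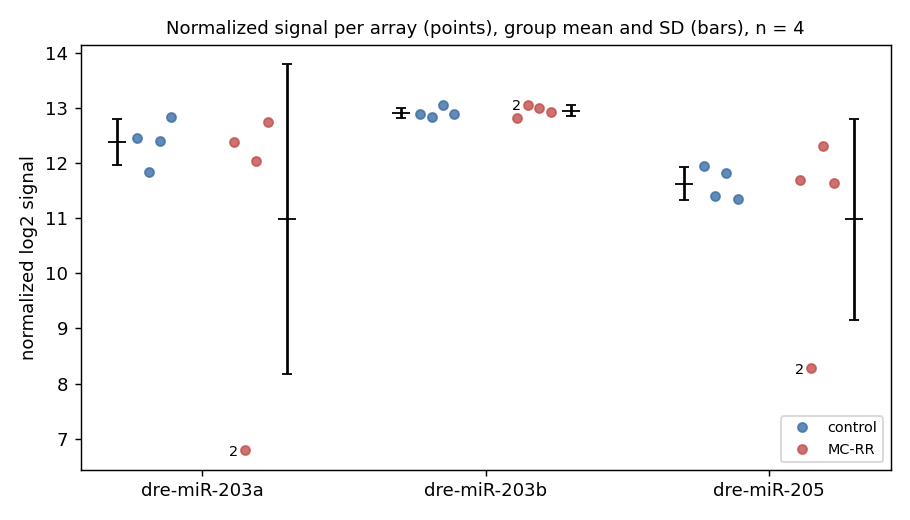
Normalized log2 signal of the 3 miRNAs; each point is an array, bars give the group mean and SD (n = 4), and the 2 beside a point marks MC-RR replicate 2. That array, at 6.79 for dre-miR-203a and 8.28 for dre-miR-205, sets the SD of 2.81 and 1.82 of the MC-RR group, while dre-miR-203b lies between 12.81 and 13.05 on all arrays.

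The deposited normalized table, which the service provider had background-subtracted and LOWESS-normalized, held the same contrast. There dre-miR-203a was 5822, 4239, 6054 and 7443 in controls and 6052, 52.8, 4518 and 6986 with MC-RR. dre-miR-205 was 4004, 3116, 4024 and 2753 in controls and 3644, 334, 5429 and 3299 with MC-RR. On the same table dre-miR-203b ran from 7870 to 10822 in controls and from 9153 to 9790 with MC-RR, where MC-RR replicate 2 was the lowest of its group.

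Array by array, a difference between probes cancels a factor common to the array. After normalization, the log2 difference of dre-miR-203a from dre-miR-203b was -0.43, -1.0, -0.66 and -0.04 in controls and -0.44, -6.26, -0.96 and -0.19 with MC-RR. The mean difference between groups was -1.43 (exact permutation test, two-sided, p = 0.514, and 0.771 adjusted over the 3 pairs of miRNAs compared). For dre-miR-203a less dre-miR-205 it was -0.75 (exact permutation p = 0.286, adjusted 0.771), and for dre-miR-203b less dre-miR-205 it was 0.68 (exact permutation p = 0.857, adjusted 0.857). An unequal change of the 3 miRNAs between the groups was therefore not shown. Without MC-RR replicate 2, on the same normalized values, the difference for dre-miR-203a less dre-miR-203b was 0.00, with a 95% interval of -0.78 to 0.79.

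The series speaks of paired embryos, and same-numbered arrays shared part of their deviations, so the 4 pairs were also set side by side. For dre-miR-203a the MC-RR array was the lower one in 4 of 4 pairs, by log2 differences of -0.08, -5.05, -0.36 and -0.10 for replicates 1 to 4. Of the 187 tested miRNAs, 39 or 20.9% were lower in all 4 pairs, so this pattern was not particular to it. dre-miR-205 was lower in 2 pairs (-0.25 and -3.12, replicates 1 and 2) and higher in the others (0.48 and 0.30). dre-miR-203b was lower in 2 pairs (-0.07 and -0.06, replicates 1 and 3) and higher in the others (0.21 and 0.05). A limma fit blocked on the pairs called 0 of the 3 at an unadjusted p under 0.05, against 16% of all tested miRNAs, and its adjusted p were 0.525 for dre-miR-203a, 0.846 for dre-miR-203b and 0.624 for dre-miR-205.

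Both other miR-203 probes were also set against dre-miR-203b in the 4 pairs. The share of all tested miRNAs that were lower in all 4 pairs relative to dre-miR-203b is not given. The direction of these pairs therefore cannot be judged. The 20.9% above is for signals without that reference. Before normalization between arrays, the within-array difference of dre-miR-203a from dre-miR-203b was -0.54, -0.85, -0.63 and -0.08 on the controls and -0.65, -6.32, -0.97 and -0.35 on the MC-RR arrays. For mmu-miR-203 it was -1.72, -1.95, -1.53 and -1.11 on the controls and -2.19, -6.30, -1.97 and -1.50 on the MC-RR arrays. The shifts within pairs 1, 3 and 4 of the mouse probe were -0.46, -0.43 and -0.39. After normalization the shifts of dre-miR-203a were -0.01, -5.26, -0.3 and -0.15 for replicates 1 to 4, so that of replicate 1 was near 0. Over 4 pairs the exact sign-flip permutation test gave p = 0.125 for both, the smallest it can give, so 4 pairs cannot pass the threshold. Between unpaired groups the mouse probe gave an exact permutation p of 0.171. Both probes were set against the same dre-miR-203b values and can bind the same RNA, so they do not count as separate evidence. The comparison of the mouse probe was added after its values were seen.

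**Figure D3:**
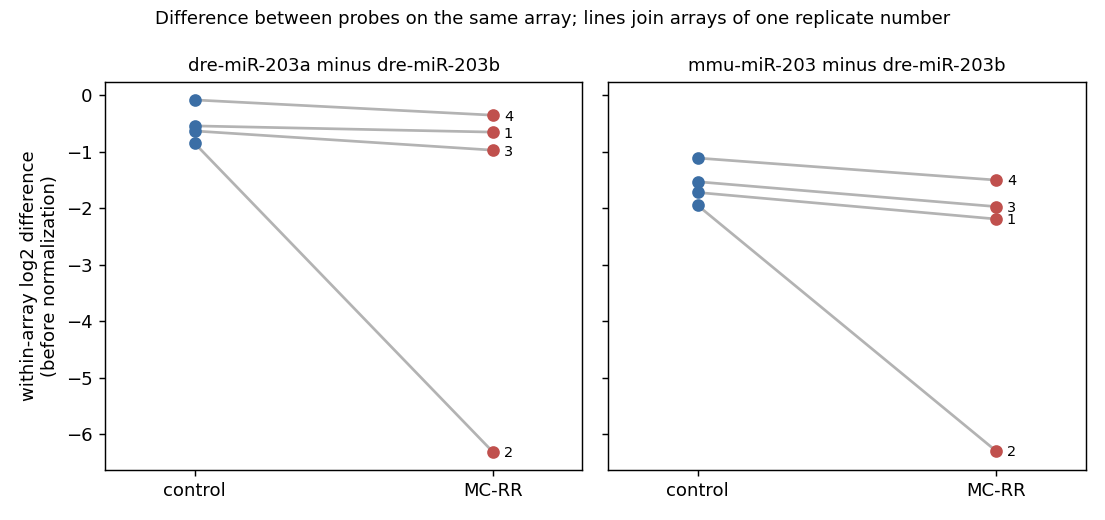
Within-array log2 difference of dre-miR-203a (left) and of the mouse probe mmu-miR-203 (right) from dre-miR-203b, before normalization between arrays; points are arrays, lines join the control and MC-RR array of a replicate number, and the number beside a point is the replicate. For the mouse probe the shifts are -0.46, -0.43 and -0.39 for replicates 1, 3 and 4, and replicate 2 reaches -6.32 (left) and -6.30 (right). The share of all tested miRNAs that shift down against dre-miR-203b is not given.

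dre-miR-203b*, the other strand of the miR-203b hairpin, was dim. Its mean intensity was 202, 233, 284 and 86.7 in controls and 385, 116, 301 and 131 with MC-RR, and on control replicate 4 it was under the blank median of 179. Its log2 fold change was 0.20, with SE 0.21 and an adjusted limma p of 0.892 (exact permutation test, two-sided, p = 0.4). The paper lists dre-miR-203b* among the miRNAs that were significantly higher with MC-RR. The direction was the same here, but dre-miR-203b* was not called. The MC-RR array was the higher one in 4 of 4 pairs, as for 12.8% of all tested miRNAs. On MC-RR replicate 2 its normalized log2 signal of 7.68 lay within the range of the controls, 7.19 to 7.78. In the deposited normalized table it was 228 on that array, above the controls (57.6 to 149) and the other MC-RR arrays (89 to 192).

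Among other epithelial miRNAs, the list of dre-miR-200a, dre-miR-200b, dre-miR-200c, dre-miR-141 and dre-miR-429 had 5 of 5 members tested. The unadjusted p was under 0.05 for 0 of them in either direction, against 8.56% of all tested miRNAs, and 0 passed after adjustment. Their log2 fold changes ran from 0.06 for dre-miR-200c to 0.21 for dre-miR-200a, with a median of 0.10. On MC-RR replicate 2 their raw intensities were 728, 1709, 1697, 1076 and 834, in the order of the list, each above its lowest value on the other 7 arrays (492, 1319, 1586, 845 and 609). The drop of dre-miR-203a and dre-miR-205 on that array was thus not seen in these 5 probes. miRNAs of muscle, brain, vessels, blood and liver were present in the same whole-embryo RNA, and 8 of 8 on that list were tested. Their log2 fold changes ran from -1.40 for muscle dre-miR-1 to 0.23 for erythroid dre-miR-451, with a median of -0.60, against -0.06 over all tested miRNAs. Without MC-RR replicate 2 the median was -0.32, against -0.01 over all tested miRNAs, and dre-miR-1 was at -0.23. The unadjusted limma p was under 0.05 for 1 of them, the endothelial dre-miR-126 (-0.66), and for 0 after adjustment. The paper reports dre-miR-126 as lower, but the related dre-miR-126b and dre-miR-126b* as higher, with MC-RR. Both relatives and dre-miR-126* were also tested here, but they are not on the list and their changes are not given. A fall of endothelial miRNAs as a set is therefore not shown. dre-miR-1 was also low on MC-RR replicate 2, at 106 against 3771 on the lowest other array. The other muscle miRNAs of the list fell less there, dre-miR-133a to 183 against 563 and dre-miR-206 to 3194 against 5747. The part of other tissues in the values of the epidermal miRNAs was not tested.

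Among all zebrafish probes, 61 had an intensity above 9 on the log2 scale on each of the arrays other than MC-RR replicate 2. Of these, 10 were more than 2 under their lowest other value on that array, without normalization, and dre-miR-203a had the largest drop (-6.08) and dre-miR-205 the ninth (-3.06). The drops between them were those of dre-miR-454b, dre-miR-1, dre-miR-454a, dre-miR-181b, dre-miR-135c, dre-miR-153c and dre-miR-19d, and the tenth was that of dre-miR-153a. These values carry the lower brightness of that array as a whole. The bounds of 9 and 2 were chosen after the values were seen.

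**Figure D4:**
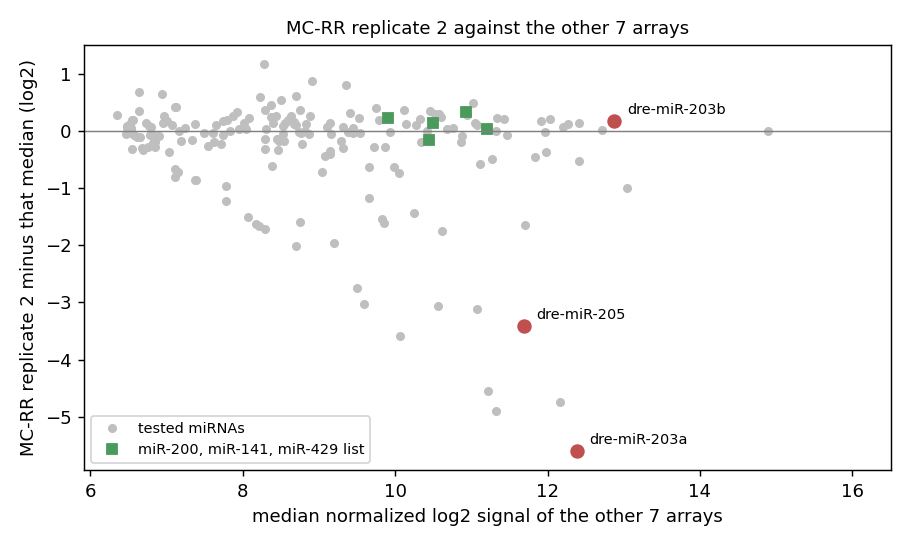
Normalized log2 signal of MC-RR replicate 2 less the median of the other 7 arrays (vertical) against that median (horizontal) for the 187 tested miRNAs in grey, with the 3 miRNAs in red and the 5 epithelial miRNAs in green. dre-miR-203a is at -5.60 and dre-miR-205 at -3.41, while dre-miR-203b (0.17) and the epithelial list lie near 0.

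Over the 8 arrays, the normalized signals of dre-miR-203a and dre-miR-205 correlated at r = 0.94, and over the 7 without MC-RR replicate 2 at -0.31. dre-miR-203a was most like dre-miR-1, dre-miR-454b and dre-miR-153c (r = 0.99, 0.99 and 0.98 over 8 arrays), each also low on MC-RR replicate 2. Without that array these correlations were 0.88, 0.85 and 0.72. For dre-miR-205 the closest were dre-miR-181b, dre-miR-30e* and dre-miR-19d (0.95, 0.95 and 0.94), which without that array fell to 0.21, 0.51 and 0.26. dre-miR-203b was closest to dre-miR-499, dre-miR-204 and dre-miR-139 (0.83, 0.74 and 0.71), and without that array the values were 0.74, 0.85 and 0.55. Ranked over the 7 arrays instead, the closest were dre-miR-429b for dre-miR-203a (0.91), dre-miR-2191 for dre-miR-203b (0.85) and dre-miR-10a* for dre-miR-205 (0.91). Over 8 arrays these values were 0.04, 0.68 and 0.23. All these correlations are descriptions over arrays that share their normalization.

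**Figure D5:**
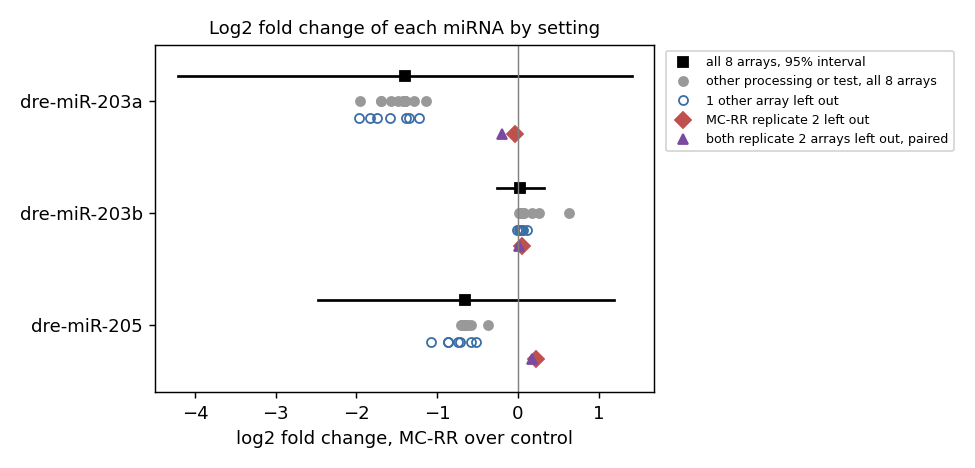
Difference of MC-RR from control, on the log2 scale, for each miRNA under the main processing with its 95% interval (squares), under other processing or tests (grey), and with arrays left out (open circles for 1 other array, a diamond for MC-RR replicate 2, a triangle for both replicate 2 arrays in a paired fit). For dre-miR-203a the value goes from -1.40 to -0.03 and for dre-miR-205 from -0.65 to 0.23 without MC-RR replicate 2, and with any other single array left out both values stay below 0.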

How the data were processed

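The authors' service provider hybridized each of the 8 RNA samples to its own array with 1 dye, scanned it and digitized it. The deposited scanner output gives the linear mean intensity of each spot, without background subtraction or normalization, and the deposited normalized table gives background-subtracted, LOWESS-normalized linear intensities by the authors' methods.

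In R 4.3.3 with limma 3.58.1, normexp with an offset of 50 was fitted to all spots of the scanner output. log2 values were averaged over 10 spots and normalized by cyclic loess over 248 zebrafish probes. The offset compresses differences near the background, and 4 arrays per group limit precision. The 187 miRNAs above 95% of the 206 blank spots in 4 or more of the 8 samples were tested with lmFit and eBayes, two-sided, with Benjamini-Hochberg adjustment, and single values by exact permutation. The fit was tested on simulated data with independent noise, without pairs or an outlying array, so that check does not cover an array such as MC-RR replicate 2.

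The deviations of same-numbered arrays correlated at 0.58, 0.29, 0.53 and 0.78 over the 187 miRNAs, which met the condition for pairing, so a replicate block was run as an alternative. Others changed the normalization, background, offset, filter, spot summary and test, used the deposited table, or left out arrays. The miRNAs named are the 3 members, their star form, probes with their name or seed, an epithelial list, and the 3 tested miRNAs closest to each member. Those of the tissue list, of the largest drops on MC-RR replicate 2 and of the 1-edit pairs fall outside that rule, and the last 2 sets were chosen after their values were seen. Members and lists were chosen with earlier results of these data known. Figures were drawn with matplotlib 3.10.9.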

Additional observations from a re-analysis of the deposited data

Results flagged for a closer look

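In 26 groups of 4 arrays checked for these probes, 7 values stood far from the rest of their group by Dixon's test, where chance flags about 1 group in 20. The groups share arrays and probes, so the 7 values are not separate departures from chance. MC-RR replicate 2 gave 6 of them. The normalized log2 signal there was 6.79 for dre-miR-203a (nearest other array of the group 12.03) and 8.28 for dre-miR-205 (11.64). For mmu-miR-203, the log2 signal before normalization was 6.35 (11.52). The within-array differences on it were -6.26 for dre-miR-203a less dre-miR-203b (nearest -0.96) and 4.77 for dre-miR-203b less dre-miR-205 (1.29). dre-miR-200b stood apart there in the other direction, at 11.26 against 10.96. The remaining value was on control replicate 4, where dre-miR-203a less dre-miR-205 was 1.5 against 0.57 on the nearest control.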

How the results depend on the processing

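In each of the 23 alternatives, none of the 3 miRNAs had an unadjusted p under 0.05, and dre-miR-203a kept its sign. Its log2 fold change ran from -1.97 to -0.03 with an array left out, and was -0.20 without both replicate 2 arrays in the paired fit. With every array kept it ran from -1.96, with plain subtraction, to -1.14, with median scaling. dre-miR-203b ran from -0.01 (without control replicate 2) to 0.11 with an array left out. Under the other settings it ran from 0.01, without both replicate 2 arrays in the paired fit, to 0.64 with median scaling. dre-miR-205 ran from -1.08 to 0.23, positive only without MC-RR replicate 2, and was 0.17 without both replicate 2 arrays in the paired fit. Without MC-RR replicate 2, dre-miR-203b less dre-miR-205 was -0.19, its range over arrays left out being -0.19 to 1.09, and without both replicate 2 arrays, a setting added once the values were known, -0.20. The replicate block changed no call of a member. Over all tested miRNAs, limma called 0 after adjustment, and 1 with an offset of 1, with no background correction or on the deposited table, and 5 in the paired fit without both replicate 2 arrays. At an unadjusted p under 0.05 the count of 16 became 10 with median scaling or plain subtraction, 3 with no normalization, 30 with the replicate block, 29 with the methods' test paired by replicate number, 42 without both replicate 2 arrays and 7 to 18 with an array left out. The median log2 fold change of all tested miRNAs moved from -0.06 to 0.14 with median scaling.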

Other observations

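Of the 61 zebrafish probes that were bright on the other 7 arrays, 11 pairs have sequences that differ by 1 edit. Set against the median of the other 7 arrays without normalization, dre-miR-203a stood at -6.75 and dre-miR-203b at -0.59 on MC-RR replicate 2, the largest gap of the 11 pairs (6.16). The next was that of dre-miR-181b and dre-miR-181c (4.47), and these 2 pairs were the only ones of the 11 with a gap over 2. dre-miR-454a and dre-miR-454b both dropped there, by log2 values of -5.04 and -6.41, and the median gap over the 11 pairs was 0.69. These comparisons were chosen after the values were seen and rest on 1 array.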
